A study of Rattus norvegicus with 4 samples.

Results

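A set of 49 genes of DNA replication and mitosis was followed in RNA-Seq libraries of OLN93 cells, an immortalized rat oligodendroglial cell line, with and without Sox10. The genes were chosen by name for their roles in the cell cycle, with earlier results of these data known. Of these 49 genes, 48 were listed among the 17327 gene symbols with deposited counts, and 29 had enough counts to be tested, out of 2438 tested genes in all. The kinetochore motor gene Cenpe had no entry among the counts.

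The libraries came from 2 control samples, labelled Sox10-positive, and 2 Sox10-deficient clones. The paper names the clones A and B, and here the letters follow the replicate numbers, A for Sox10-deficient replicate 1 and B for replicate 2. The Sox10 gene, which encodes a transcription factor of oligodendroglial cells, had been inactivated by CRISPR/Cas9 genome editing with a different guide RNA in each of clones A and B. Each Sox10-deficient library therefore stands for 1 clone and 1 guide RNA, and a clone's own properties and the loss of Sox10 cannot be told apart within a library. The controls are described as control clones in the study's methods and as biological replicates in the labels. The labels give the same culture for all 4 samples, DMEM with 10% FCS and a split every 96 h, without stating that RNA was taken on separate days, so that the p-values below measure the spread between these samples only.

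The genes fall into an ordered programme. D-type cyclins and their kinases lead cells through G1 phase, origins of replication are licensed by loading the MCM helicase, and the helicase is then activated and DNA copied in S phase. Cyclin A and cyclin B partners of Cdk1 bring cells into mitosis, where Aurora and Polo kinases, the kinetochore and the spindle checkpoint control chromosome segregation and the anaphase-promoting complex ends mitosis. In the oligodendroglial lineage, precursor cells divide and leave the cycle when they differentiate, whereas an immortalized line keeps dividing.

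The deposited counts summed to 60951 and 104017 in control samples 1 and 2. The totals were 86817 for clone A and 89128 for clone B. These totals are far below the reads per library that the paper states, and so do not give the sequencing depth. Over 5353 genes with a mean of at least 500 in the authors' own table, the deposited count was a median of 0.384% of that mean. Levels are given as CPM, counts scaled to a common library total after TMM normalization. A floor of 3 counts corresponded to between 29.0 and 48.2 CPM and covers counting error only. Sox10 itself had 28 and 64 counts in the control samples, 0 in clone A and 14 in clone B, and its log2 fold change was -2.74 ± 0.62 (SE, adjusted p = 0.0172, edgeR). The log2 fold change ran from -1.76 without clone A to -8.51 without clone B, and the adjusted p was above 0.05 with DESeq2 (1.00), with the replicate number in the model (0.125), without clone A (0.0959) and without the genes whose counts far exceeded what the authors' own table gives (0.0721). The 12 oligodendroglial markers include Sox10, so their sum contains the counts of the edited gene itself. Their summed level was 3051 and 2769 CPM in the control samples and 1920 and 1769 CPM in the clones. The myelin gene Mag was at 0 throughout. Summed astrocyte markers were at 434 and 213 CPM against 23.1 and 11.3 CPM, with 5 of 7 at 0 in every library. Only 1 of the 7 had enough counts to be tested, with a log2 fold change of -4.04. Schwann cell and neural crest markers, 7 of 8 listed, were at 1622 and 1771 CPM against 809 and 578 CPM. The 6 neuron markers, 4 of them at 0, summed to between 45.4 and 174 CPM in the 4 libraries, and the 5 microglia markers, 3 of them at 0, to between 45.4 and 136 CPM. The part of cell composition in the results below was not tested.

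The 48 listed genes together took 659, 913, 813 and 806 counts in control 1, control 2, clone A and clone B. Their summed level was 10583 and 8838 CPM in the control samples and 9401 and 9140 CPM in the clones. Both clones lay between the control samples, and the clone mean was 95.5% of the control mean. The 3 genes with the highest levels were Ccnd1, Mki67 and Gins2. Without these 3, an omission chosen after their values were seen, the sum was 7211 and 5740 CPM in the control samples against 5157 and 5398 CPM in the clones, or 81.5% of the control mean.

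A gene was called where its change reached 2-fold and p was 0.05 or lower in edgeR's quasi-likelihood test, once with p adjusted over all tested genes by the Benjamini-Hochberg method and once unadjusted. With adjusted p, 1 of the 29 tested genes fell, Cdk1, or 3.45%, where 2.50% of all tested genes were called lower. In the other direction 2 of 29 were called higher, Hjurp and Gins2, or 6.90%, against 1.11% of all tested genes. With unadjusted p, Ube2c joined Cdk1 among the lower genes, 2 of 29 or 6.90%, against 6.97% of all tested genes. Likewise Ccnd2 joined the higher genes, 3 of 29 or 10.3%, against 4.63% of all tested genes. A single gene amounts to 3.45% of the 29. The filter on low counts asked for enough counts in any 2 libraries, for all genes alike. Hjurp and Ccnd2 met it through the clones alone and Cdk1 through the control samples alone, the groups where they were high. The calls of these genes are therefore not independent of the filter.

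The direction of the estimates was uneven over all 29 tested genes, the called ones included. The log2 fold change was below 0 for 21 of 29 genes, or 72.4%, against 50.5% of all tested genes, and its median was -0.38 against -0.0059 over all tested genes. Both values moved with control 1, without which 16 of 29 were below 0 and the median was -0.067. Both clones lay below both control samples for 10 of 29 genes, or 34.5%, against 21.5% of all tested genes. Both clones lay above both control samples for 5 of 29, or 17.2%, against 21.6%. The genes share their phases of expression and are not independent replicates, so these shares are descriptions without a test.

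**Figure D1:**
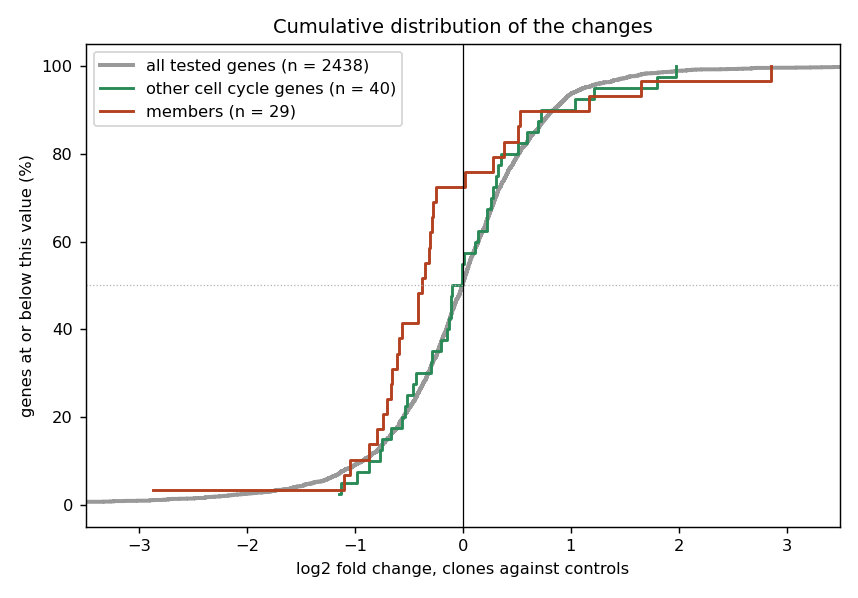
The plot sets the cumulative distribution (percent of genes at or below each log2 fold change, clones against controls) of the 29 tested replication and mitosis genes beside that of 40 other cell cycle genes and of all 2438 tested genes. The replication and mitosis genes spread from -2.87 to 2.85 and their median of -0.38 lies to the left of the median of all tested genes, which is close to 0.

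The 95% interval of the log2 fold change reached a median of 1.14 to either side of the estimate in the 29 genes and 1.06 in all tested genes. The interval lay wholly within 2-fold of no change for 2 genes, Ccnd1 and Mki67, or 6.90%, against 14.4% of all tested genes. A 2-fold decrease lay outside the interval for 8 genes and a 2-fold increase for 21. The matching shares of all tested genes were not computed, so these numbers describe the 29 genes only.

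**Figure D2:**
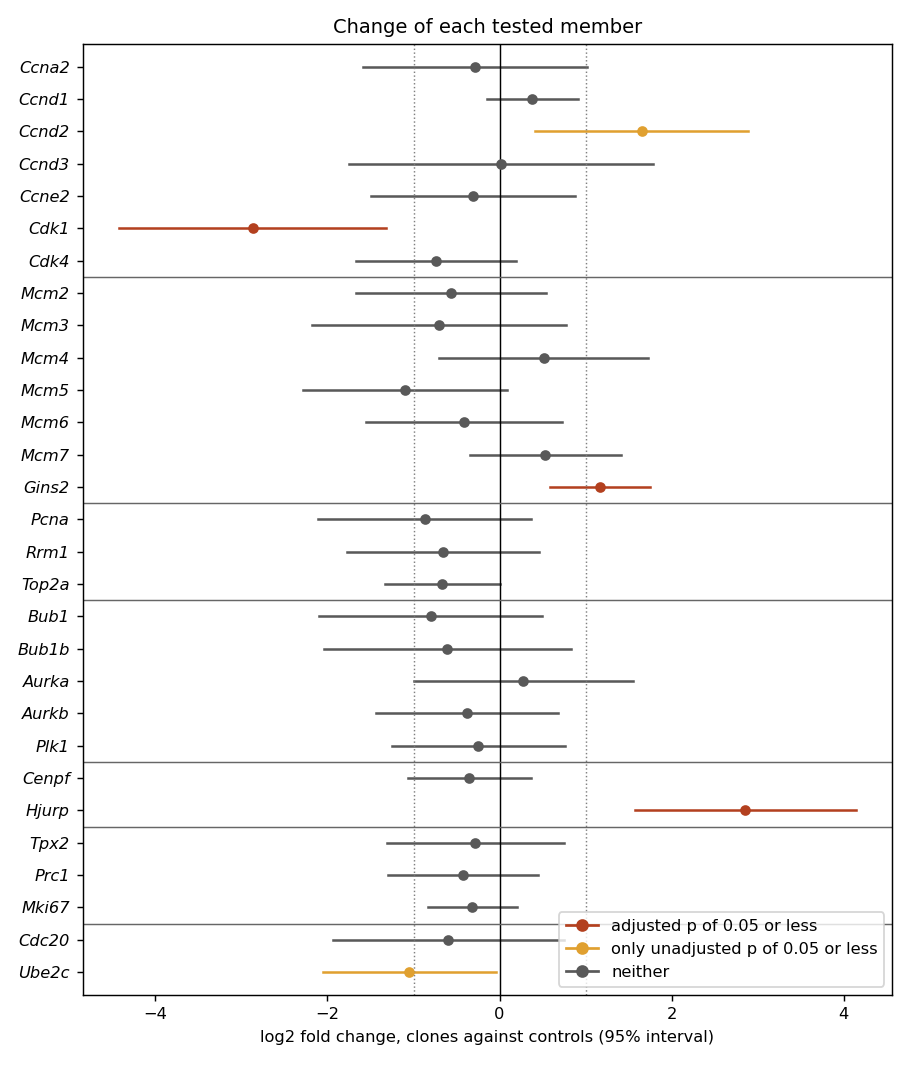
The plot gives the log2 fold change of each tested gene with its 95% interval, grouped by role, and colours mark which criterion a gene met. Cdk1 lies far to the left and Hjurp far to the right, whereas most other intervals cross 0 and reach about 1 to either side.

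Cyclins and cyclin-dependent kinases held the largest decrease. Cdk1 (ENSRNOG00000000632), the kinase that drives entry into mitosis, had 17 and 18 counts in the control samples and 1 and 4 counts in clones A and B, or 273 and 174 CPM against 11.6 and 45.4 CPM. The groups did not overlap, and clone A was lower than clone B. The clone mean of 28.5 ± 23.9 CPM was 12.7% of the control mean of 224 ± 69.8 CPM (SD, n = 2 each). Cdk1 fell by 2.87 on the log2 scale (SE 0.74, 95% interval -4.42 to -1.32, adjusted p = 0.0373, edgeR), or 7.32-fold. Clone A lay at or under the floor of 3 counts. In RNA from whole cultures, fewer cells in the phases that express Cdk1 and less Cdk1 transcript per cell cannot be told apart. The adjusted p was above 0.05 in 6 of 10 alternative analyses, ranging from 0.0173 to 0.274 over them, while the log2 fold change stayed between -4.08 and -2.23. It rose to 0.274 without control 1, to 0.212 without clone A and to 0.0670 without clone B.

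The promoter of Cdk1 was read together with those of Plk1 and Top2a, which are well counted and did not pass a test, to show which cell cycle elements they hold. The windows come from RefSeq on assembly GRCr8, whereas the counts were made on rn5, and positions count from the annotated transcription start. Capitals mark matches, on either strand, to an E2F site (TTTCCCGC, TTTCGCGC, TTTGCCGC or TTTGGCGC), to the cell cycle gene homology region, CHR (TTTGAA or TTCGAA), or to a CCAAT box (CCAAT). A motif on the other strand is written as its reverse complement, such as ATTGG. The Cdk1 stretch is chr20:19265043-19265251 on the plus strand and ends 42 bases before the start, the Plk1 stretch is chr1:186147408-186147657 on the plus strand, and the Top2a stretch is chr10:84473094-84473343 on the minus strand.
Cdk1: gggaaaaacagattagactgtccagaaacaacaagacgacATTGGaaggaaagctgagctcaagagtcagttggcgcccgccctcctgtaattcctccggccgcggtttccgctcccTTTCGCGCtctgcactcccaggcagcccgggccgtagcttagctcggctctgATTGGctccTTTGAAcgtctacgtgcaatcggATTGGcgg
Plk1: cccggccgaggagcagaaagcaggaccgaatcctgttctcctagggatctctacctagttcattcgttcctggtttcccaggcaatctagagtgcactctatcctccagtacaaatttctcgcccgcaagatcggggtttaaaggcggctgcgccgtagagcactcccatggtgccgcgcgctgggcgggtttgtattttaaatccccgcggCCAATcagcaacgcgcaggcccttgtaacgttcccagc
Top2a: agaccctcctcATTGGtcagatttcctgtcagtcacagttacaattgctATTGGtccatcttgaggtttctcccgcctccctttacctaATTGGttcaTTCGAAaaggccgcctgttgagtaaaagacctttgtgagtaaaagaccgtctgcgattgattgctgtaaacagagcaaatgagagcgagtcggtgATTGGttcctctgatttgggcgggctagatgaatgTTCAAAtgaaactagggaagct
In the stretches shown, Cdk1 held 1 E2F site, 1 CHR and 3 CCAAT boxes, and a further CHR lay at position -16, past the end of the stretch. Plk1 held 1 CCAAT box, and a CHR lay at position 7, just past the start. Top2a held 2 CHR and 4 CCAAT boxes.

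Promoter windows of 300 bases, from 250 before the start to 50 after it, were matched for 36 of the 49 genes, and 13 had no entry. An E2F site was found in 10 of 36, or 27.8%, against 2.14% of all 33469 promoter windows. All windows were taken whether or not their gene had counts here. A CHR was found in 17 of 36, or 47.2%, against 19.7% of all windows. A CCAAT box was found in 25 of 36, or 69.4%, against 37.5%. All 3 kinds were found in the windows of Cdk1 and Mcm7, or 5.56% against 0.167% of all windows. Cdk1 and Mcm7 had log2 fold changes of -2.87 and 0.53. The median log2 fold change was -0.63 over the 6 tested genes with an E2F site and -0.42 over the 15 tested genes with a window without one. For CHR it was -0.49 over 12 genes with the motif and -0.70 over 9 without. For the CCAAT box it was -0.42 over 15 genes with the motif and -0.59 over 6 without. A match of letters is not a measured binding site, and the difference between these medians was not tested.

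The D-type cyclins activate Cdk4 and Cdk6 in G1 phase. Ccnd1 had 96 and 131 counts in the control samples and 172 and 145 in the clones, or 1542 and 1268 CPM against 1989 and 1644 CPM. The groups did not overlap, and the log2 fold change was 0.38 ± 0.25 (SE, 95% interval -0.15 to 0.91, adjusted p = 0.550, edgeR). Ccnd2 (ENSRNOG00000019939) had 4 and 7 counts in the control samples and 15 and 22 in the clones, or 64.2 and 67.8 CPM against 173 and 249 CPM. Both clones stood above both control samples by 3.14-fold on average, a log2 fold change of 1.65 ± 0.59 (SE, 95% interval 0.41 to 2.89). The unadjusted p of 0.0119 in edgeR's quasi-likelihood test passed, whereas the adjusted p of 0.155 did not. Ccnd3 varied within both groups, from 32.1 to 136 CPM in the control samples and from 56.7 to 127 CPM in the clones, with a log2 fold change of 0.02 that became -0.56 without control 1. The 3 D-type cyclins summed to 1638 and 1471 CPM in the control samples and 2290 and 1950 CPM in the clones, or 136% of the control mean, with no overlap.

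Among the other cyclins and kinases, Cdk4, a partner of the D-type cyclins, had 17 and 31 counts in the control samples and 20 and 10 in the clones, or 273 and 300 CPM against 231 and 113 CPM. Its log2 fold change was -0.74 ± 0.44 (SE) and did not pass either criterion. Cdk4 overlaps Tspan31, which had 22, 45, 32 and 39 counts, and the sources used here do not state whether HTSeq counted by strand. Ccna2, the cyclin of S phase and early mitosis, lay between 87.1 and 209 CPM in the control samples and at 127 and 102 CPM in the clones, and the groups overlapped. Ccne2, a cyclin of the entry into S phase, also overlapped, at 80.3 and 252 CPM against 116 and 170 CPM. Its mean deposited count, as a share of the mean count in the authors' own table, was 8.30 times the median gene's share, and it overlaps Ints8, which has no entry among the counts. Ccnb1, Ccnb2, Ccne1, Cdk2 and Cdk6 had too few counts to be tested. Ccnb1, the mitotic partner of Cdk1, had 2 and 13 counts in the control samples and 1 and 8 in the clones, and the groups overlapped. Cdk6 had 2 and 6 counts against 8 and 9, or 32.1 and 58.1 CPM against 92.5 and 102 CPM, without overlap and without a test. The 12 genes of the group summed to 2698 and 2585 CPM in the control samples and 3053 and 2710 CPM in the clones, or 109%.

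**Figure D3:**
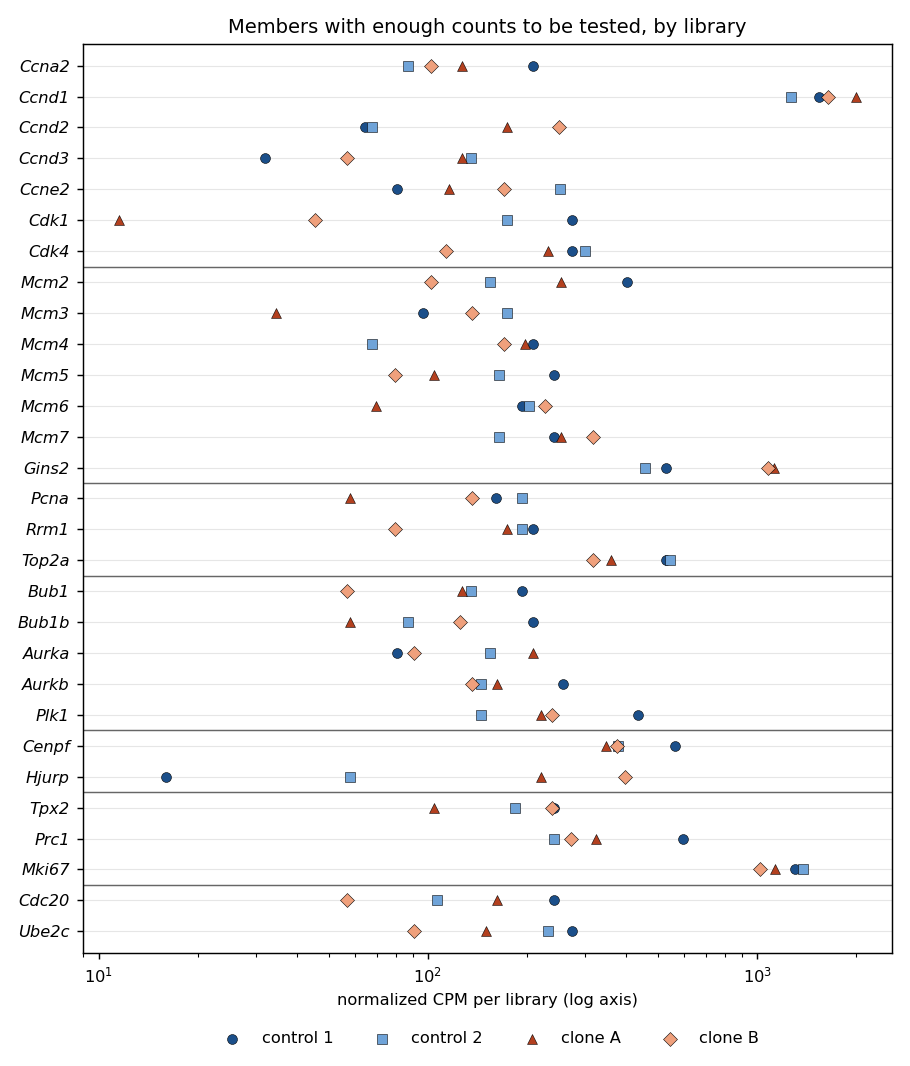
The plot shows the normalized CPM of each tested gene in each of the 4 libraries on a log axis, grouped by role. Cdk1, Mcm5, Top2a and Ube2c have both clones to the left of both control samples, Ccnd2, Gins2 and Hjurp have both to the right, and for most other genes the libraries interleave.

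The replication licensing and origin firing genes were led by Gins2 (ENSRNOG00000017575), a subunit of the GINS complex that activates the MCM helicase. It had 33 and 47 counts in the control samples and 97 and 95 in the clones, or 530 and 455 CPM against 1122 and 1077 CPM. The replicates lay close together and the groups were well apart. The difference of 2.25-fold, a log2 fold change of 1.17 ± 0.27 (SE, 95% interval 0.59 to 1.75), passed the test with adjusted p = 0.0218 in edgeR. These counts are uncertain as a measure of Gins2. The deposited mean count was 19.1% of the mean count of 356 in the authors' own table of this comparison. The median was 0.384% over the 5353 genes with a mean there of at least 500, a cut that Gins2 did not meet. Its excess over that median was 49.7 times. Gins2 was the only member of the set above 10 times that median ratio, 1 of 29 tested. Of all 2438 tested genes, 360 lay above it. It overlaps Gse1, which has no entry among the counts, and whether reads of Gse1 entered the Gins2 count was not tested. The adjusted p passed 0.05 in 5 of 10 alternatives and ranged from 0.0116 to 0.179, with the highest value when clone A was left out. It was 0.0913 without control 2 and 0.135 without clone B.

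The MCM genes encode the ring-shaped helicase that is loaded at origins. Mcm5 had 15 and 17 counts in the control samples and 9 and 7 in the clones, or 241 and 165 CPM against 104 and 79.4 CPM. Both clones lay below both control samples, at 45.2% of the control mean, and the log2 fold change of -1.10 ± 0.56 (SE) had a 95% interval of -2.29 to 0.09 that includes 0. Mcm7 lay the other way, at 241 and 165 CPM against 254 and 318 CPM, with a log2 fold change of 0.53 ± 0.42 (SE, 95% interval -0.35 to 1.41). Mcm2 and Mcm4 were each more than 2-fold apart between the control samples, at 401 and 155 CPM for Mcm2 and 209 and 67.8 CPM for Mcm4. Their clones lay at 254 and 102 CPM and at 197 and 170 CPM, and the groups overlapped for both genes. For Mcm3 and Mcm6 it was the clones that stood apart from each other, at 34.7 and 136 CPM and at 69.4 and 227 CPM. No MCM gene passed either criterion. The 6 together summed to 1381 and 929 CPM in the control samples and 914 and 1032 CPM in the clones, or 84.2% of the control mean, with overlap.

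The loading factors Cdc6 and Cdt1, the helicase subunit gene Cdc45 and the GINS gene Gins1 were too low to be tested. Cdc6 had 6 counts in each control sample and 11 and 1 in the clones. Cdt1 had 1 and 8 counts in the control samples and 2 and 8 in the clones. Gins1 never exceeded 3 counts, and Cdc45 had 1 and 0 counts against 1 and 5. With Gins2 the 11 genes of the group summed to 125% of the control mean and without it to 87.5%, at 1510 and 1094 CPM against 1075 and 1202 CPM, so that the direction of the sum rested on Gins2.

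The genes of the replication fork, nucleotide supply and DNA topology were lower in both clones than in both control samples for each of the 3 that were tested, where 21.5% of all tested genes had this order, and none of the 3 passed a criterion. Top2a, the topoisomerase that untangles sister chromatids, had 33 and 56 counts in the control samples and 31 and 28 in the clones, or 530 and 542 CPM against 358 and 318 CPM. Each group was tight, and the clone mean was 63.1% of the control mean. Its log2 fold change of -0.66 ± 0.32 (SE) had a 95% interval of -1.34 to 0.01 and an adjusted p of 0.343 in edgeR. Pcna, the sliding clamp of DNA polymerases, was at 161 and 194 CPM against 57.8 and 136 CPM. Rrm1, the large subunit of ribonucleotide reductase, was at 209 and 194 CPM against 173 and 79.4 CPM, with a log2 fold change of -0.66 ± 0.53 (SE). In both of these genes 1 clone lay close to the control samples and the other well below, but it was clone A for Pcna and clone B for Rrm1. Rrm2, the small subunit, had 5 and 2 counts against 1 and 1. Tyms, which makes thymidylate, stayed at or under 3 counts in every library. The 5 genes summed to 1028 and 958 CPM in the control samples and 613 and 567 CPM in the clones, or 59.4%, without overlap.

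**Figure D4:**
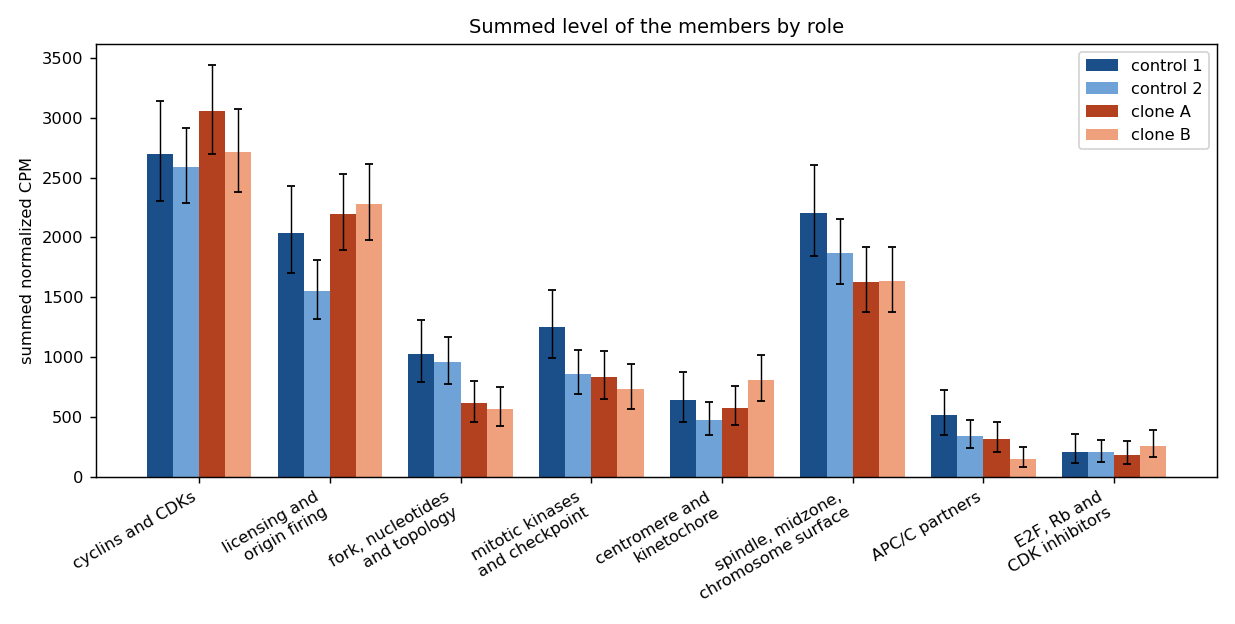
The plot gives the summed CPM of each role group in each library, with a 95% Poisson interval that covers counting error only. The fork, nucleotide and topology genes sum to 613 and 567 CPM in the clones against 1028 and 958 CPM in the control samples, while the sums of cyclins and kinases lie between 2585 and 3053 CPM in all 4 libraries.

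The mitotic kinases and checkpoint genes gave no call. Plk1, the Polo-like kinase of mitotic entry and exit, had 27 and 15 counts in the control samples and 19 and 21 in the clones, or 434 and 145 CPM against 220 and 238 CPM. Both clones lay between the control samples, and the log2 fold change of -0.25 ± 0.48 (SE) became 0.65 when control 1 was left out. Aurkb, the kinase of the chromosomal passenger complex, was at 257 and 145 CPM against 162 and 136 CPM, and its log2 fold change of -0.38 ± 0.50 (SE) became 0.035 without control 1. Bub1, a checkpoint kinase, was at 193 and 136 CPM against 127 and 56.7 CPM, without overlap, with a log2 fold change of -0.80. Its partner Bub1b was at 209 and 87.1 CPM against 57.8 and 125 CPM, and the spindle pole kinase gene Aurka at 80.3 and 155 CPM against 208 and 90.7 CPM, both with overlap. Birc5, the survivin subunit of the passenger complex, had 4 and 12 counts in the control samples and 2 and 4 in the clones. Mad2l1, which holds back anaphase, had 1 and 8 counts against 3 and 4. Neither was tested. The 7 genes summed to 1253 and 862 CPM in the control samples and 833 and 737 CPM in the clones, or 74.2%.

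At the centromere, Hjurp (ENSRNOG00000022911), the chaperone that deposits the centromeric histone Cenpa, was the member with the largest increase. It had 1 and 6 counts in the control samples and 19 and 35 in clones A and B, or 16.1 and 58.1 CPM against 220 and 397 CPM. Both clones lay far above both control samples, and control 1 lay under the floor. The clone mean of 308 ± 125 CPM compared with 37.1 ± 29.7 CPM in the control samples (SD, n = 2 each). Hjurp rose by 2.85 ± 0.61 on the log2 scale (SE, 95% interval 1.57 to 4.14, adjusted p = 0.0120, edgeR), or 7.23-fold. The adjusted p passed 0.05 in 7 of 10 alternatives and was 0.240 without clone B. The deposited count of Hjurp was 2.38 times the median share of the authors' mean. The gene overlaps Mroh2a, which has no entry among the counts, and Trpm8, which had 0 counts in every library.

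The other centromere genes did not share this direction. Cenpf, a large kinetochore protein, had 35 and 39 counts in the control samples and 30 and 33 in the clones, or 562 and 378 CPM against 347 and 374 CPM. Clone B lay close to control 2, and the log2 fold change was -0.35 ± 0.34 (SE, 95% interval -1.06 to 0.36). Cenpa itself had 4 counts in each control sample and 1 and 3 in the clones and was not tested. Without Hjurp the group summed to 626 and 416 CPM against 358 and 408 CPM, or 73.5% of the control mean, whereas with it the sum was 124%.

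Mki67, whose product Ki-67 coats mitotic chromosomes and is a common marker of dividing cells, had the most counts of the mitotic genes, at 81 and 142 in the control samples and 98 and 90 in the clones, or 1301 and 1375 CPM against 1133 and 1021 CPM. Both clones lay below both control samples, at 80.5% of the control mean. The log2 fold change of -0.32 ± 0.25 (SE) had a 95% interval of -0.84 to 0.21, so that a 2-fold change in either direction lay outside it. Prc1, which bundles the microtubules of the central spindle, was at 594 and 242 CPM against 324 and 272 CPM, with both clones between the control samples. Its log2 fold change of -0.42 ± 0.41 (SE) became 0.30 without control 1. Tpx2, an activator of Aurka on the spindle, was at 241 and 184 CPM against 104 and 238 CPM. Nusap1, a spindle microtubule protein, had 4 and 7 counts against 6 and 9 and was not tested. The 4 genes summed to 2200 and 1868 CPM in the control samples and 1630 and 1633 CPM in the clones, or 80.2%.

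The partners of the anaphase-promoting complex were Cdc20, its mitotic activator, and Ube2c (ENSRNOG00000015131), its ubiquitin-conjugating enzyme. Ube2c had 17 and 24 counts in the control samples and 13 and 8 in the clones, or 273 and 232 CPM against 150 and 90.7 CPM. The groups did not overlap, and the level was 2.07-fold lower in the clones, a log2 fold change of -1.05 ± 0.48 (SE, 95% interval -2.05 to -0.04). The unadjusted p of 0.0421 in edgeR's quasi-likelihood test passed, and the adjusted p of 0.311 did not. Cdc20 was at 241 and 106 CPM against 162 and 56.7 CPM, with overlap, and its log2 fold change of -0.59 ± 0.64 (SE) became 0.033 without control 1.

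The regulators E2f1, Rb1, Cdkn1b and Cdkn1c could not be tested. E2f1, an activator of S phase genes, had 3 and 2 counts in the control samples and 6 and 1 in the clones. Rb1, the retinoblastoma protein that restrains E2F factors, had 6 and 8 counts against 3 and 15, and it overlaps Lpar6, which had 1, 13, 2 and 7. Cdkn1b, the inhibitor p27, had 4 and 11 counts against 7 and 7. Cdkn1c, the inhibitor p57, had 0 counts in all 4 libraries. Taken alone, these counts allow up to 48.2 CPM in control 1 and up to between 29.0 and 34.7 CPM in the others. Its mean count in the authors' own table was 2, against 1974 for Cdkn1b. In all, 19 listed genes were not tested, with totals between 0 and 32 counts over the 4 libraries and at most 15 in any single library. In a fit without the filter on low counts, none of these genes reached an unadjusted p of 0.05 in edgeR's quasi-likelihood test.

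Other genes of the same pathways, written as a list of 164 from general knowledge, had 147 entries among the counts and 40 tested genes. With adjusted p in edgeR 0 were called lower, against 2.50% of all tested genes, and with unadjusted p 1 was, Pkmyt1, or 2.5% against 6.97%. With adjusted p 1 was called higher, Ccng1, or 2.5% against 1.11%, and with unadjusted p 3 were, or 7.5% against 4.63%. Their median log2 fold change was -0.056, with 22 of 40 below 0, or 55% against 50.5%. The median was 0.11 over 9 other replication genes, -0.11 over 22 other mitosis genes and 0.26 over 9 other control genes. Their summed level was 12270 and 12139 CPM in the control samples and 12616 and 13358 CPM in the clones.

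The called genes in that list belong to cell cycle control. Ccng1, a p53 target that encodes cyclin G, had 19 and 46 counts in the control samples and 68 and 88 in the clones, or 305 and 445 CPM against 786 and 998 CPM. It rose by 1.21 ± 0.30 on the log2 scale (SE, adjusted p = 0.0327, edgeR), with both clones above both control samples. The adjusted p passed 0.05 in 5 of 11 alternatives and ranged from 0.00767 to 0.283, at 0.0868 without control 1, 0.0882 without clone A and 0.283 without clone B. Cdkn1a, the CDK inhibitor p21 and also a p53 target, was at 64.2 and 67.8 CPM against 231 and 238 CPM, a log2 fold change of 1.80 ± 0.56 (SE) that missed the adjusted criterion (adjusted p = 0.0922, edgeR). Wee1 and Pkmyt1 encode the kinases that place inhibitory phosphates on Cdk1. Wee1 was at 48.2 and 38.7 CPM against 116 and 227 CPM, a log2 fold change of 1.97 ± 0.73 (SE, adjusted p = 0.181, edgeR). Pkmyt1 lay the other way, at 369 and 271 CPM against 104 and 181 CPM, a log2 fold change of -1.13 ± 0.44 (SE, adjusted p = 0.217, edgeR), with a deposited count 6.69 times the median share of the authors' mean.

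Of the best-counted genes in these lists, the maintenance methyltransferase gene Dnmt1 was at 305 and 232 CPM against 289 and 295 CPM, the clamp loader gene Rfc5 at 289 and 329 CPM against 278 and 113 CPM, and the mitotic kinesin gene Kif20a at 610 and 794 CPM against 671 and 488 CPM. None of these differences passed a criterion. The kinetochore gene Cenpk, at 209 and 523 CPM against 717 and 533 CPM, and the Rb relative Rbl2, at 128 and 300 CPM against 150 and 374 CPM, had deposited counts of 22.8 and 14.2 times the median share and are uncertain for that reason.

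**Figure D5:**
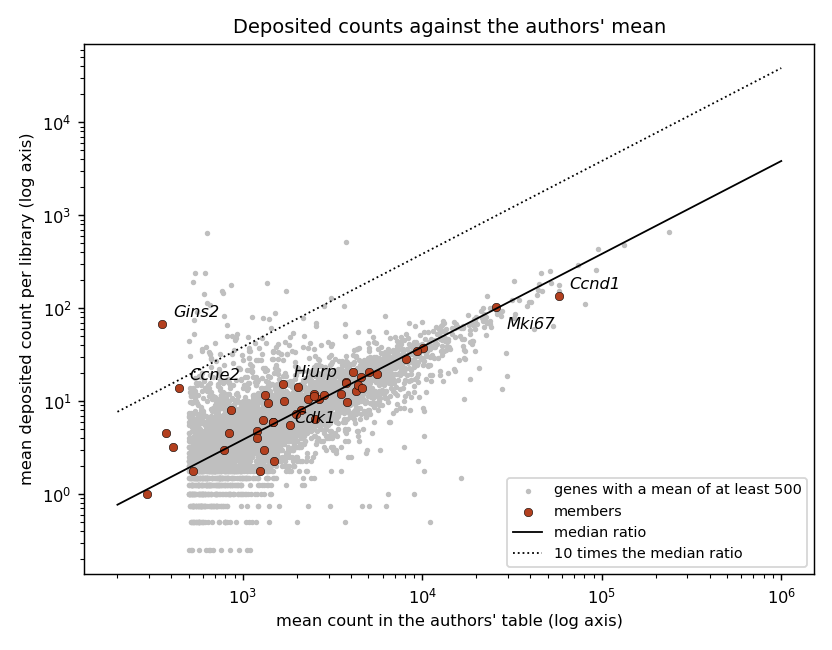
The plot sets the mean deposited count of each gene against the mean count in the authors' table, both on log axes, with a line at the median ratio and a dotted line at 10 times that ratio. Of the replication and mitosis genes, Gins2 alone lies above the dotted line, and Cdk1, Mki67 and Ccnd1 lie close to the median line.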

How the data were processed

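Stranded mRNA libraries had been made from OLN93 total RNA, 2 of control samples and 2 of Sox10-deficient clones. The authors deposited unnormalized counts per gene symbol. Reads had been mapped to the rat genome rn5 with STAR 2.5.1 and counted with HTSeq, per the submitters' processing notes. The counting's strand option is not given in the sources used here. The authors also deposited a DESeq2 table whose mean read count, rounded and treated here as a score, was used only to judge the support of each count. Its fold changes and p-values were not used here.

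The quasi-likelihood test of edgeR 4.0.16 in R 4.3.3 (filterByExpr, TMM, glmQLFit) compared the groups over 2438 genes by condition alone, after being checked on simulated data. SEs were derived from the F statistic. Deposited totals ranged from 60951 to 104017 counts. The genes and lists were chosen with earlier results of these data known. Named by rule were genes called with unadjusted p, the 2 highest genes per role, genes at or under 3 counts in every library, and, of the other pathway genes, those of smallest p and highest level. Other members are named so that each is accounted for, after their values were seen. Alternatives were DESeq2 1.42.0, its size factors or library totals in edgeR, other filters, a replicate block and leaving out each library. Promoter windows were searched in Python 3.11.15.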

Additional observations from a re-analysis of the deposited data

How the results depend on the processing

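The counts of called genes rested on few genes and were unstable. In the main fit, 170 of all 2438 tested genes were called lower and 113 higher with unadjusted p. With adjusted p these were 61 and 27. DESeq2 called 1 gene of the set lower and 2 higher with unadjusted p, against 103 and 68 of all tested genes. With adjusted p it called 0 and 0, against 28 and 8 of all tested genes. Without a filter, 1 of 47 was lower with unadjusted p, against 329 of 10024 genes in that fit. With at least 10 counts in every library, 10 genes were tested, 0 were lower and 1, Gins2, was higher by both criteria. Of the 1122 genes in that fit, 39 were lower and 32 higher with unadjusted p, and 23 and 20 with adjusted p. Cdk1, Hjurp, Ccnd2 and Ube2c each had a library under 10 counts and could not enter this fit, so it cannot show whether their calls hold. A fit with the replicate number as a replicate block called 2 lower and 3 higher with unadjusted p, against 157 and 103 of all tested genes. With adjusted p it called 0 lower and 0 higher, against 28 and 11 of all tested genes. The labels share only numbers between groups, and same-numbered samples deviated together with a correlation of 0.12 over all tested genes. Without the 360 tested genes with an excess of counts, an alternative chosen after seeing the data, 0 were lower and 1 was higher with adjusted p. Of the 2078 genes in that fit, 35 were lower and 16 higher. The causes were not tested.

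Each library was also left out in turn. The group then left with 1 library was assumed to vary like the other, so the size of the changes is given here and no count of calls. The median log2 fold change ranged from -0.65 without control 2 to -0.067 without control 1, and the log2 ratio of the summed level from -0.19 to 0.068. Under these omissions Plk1 ranged from -0.92 to 0.65, Aurkb from -0.78 to 0.035, Prc1 from -0.99 to 0.30, Cdc20 from -1.52 to 0.033, Dnmt1 from -0.064 to 0.33 and Rbl2 from -0.58 to 1.02, with -0.19 without control 1. Of the 29 tested replication and mitosis genes, 13 turned direction when some library was left out, 9 of them without control 1, and 0 of the 13 had been called. These included Ccna2 (0.39), Bub1b (0.068) and Mcm2 (0.20) without control 1, Ccne2 (0.82) and Mcm4 (-0.19) without control 2, and Mcm6 (0.19), Tpx2 (0.19) and Aurka (-0.43) without clone A. The share of all tested genes that turned direction was not computed, so these turns cannot be called particular to the set. Low deposited counts and 2 samples per group both limit the precision, and their shares were not separated.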

Other observations

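The spread within each group was larger than counting alone gives. Between control 1 and control 2, the log2 ratio of the 29 tested genes had an SD of 0.98, where counting error alone gives 0.62. Between clone A and clone B the SD was 1.00, against 0.65 from counting. Over all tested genes the SDs were 0.88 and 0.84.

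The control samples also differed in the direction of these genes. Of the 29, 18 were higher in control 1 than in control 2, or 62.1%, against 49.5% of all tested genes, and the median log2 ratio was 0.28 against -0.0066. Between the clones, 17 of 29 were higher in clone A, or 58.6%, against 50.9% of all tested genes, with a median log2 ratio of 0.18. The median fitted log2 fold change between clones and controls was -0.38. It compares groups of 2 libraries, whereas the medians of 0.28 and 0.18 are CPM ratios between single libraries, so their sizes are not directly comparable.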
